A study of Mus musculus with 28 samples.

Results

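Neural progenitor and neuron marker genes were followed through the data of mouse ES cells with and without knock-down of *Ssrp1*, a subunit gene of the histone chaperone FACT. The 9 genes were taken by symbol from a list and joined by GeneID. They were the progenitor genes *Pax6*, *Sox1*, *Sox3* and *Nes* and the neuronal genes *Tubb3*, *Map2*, *Dcx*, *Stmn2* and *Ncam1*. All 9 are among the 27179 genes of the chromatin RNA table, and 7 of them are among the 15384 genes with RNA-seq values per library. *Sox3* and *Dcx* are not listed in that table. The same 7 are listed in the tables of NPCs and of KD cells, of which only the authors' mean level over all libraries was used here.

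The cells are mESCs of the E14 line, grown in 15% serum with 10 ng/ml LIF. For RNA-seq, 4 libraries came from control cells, transfected with a scramble shRNA vector, and 4 from cells transfected with shRNA vectors for *Ssrp1* knock-down (KD). Both groups were selected with puromycin at 2 µg/ml for 24 h, starting 48 h after transfection, and ERCC spike-in RNA was added. ChIP-seq of the FACT subunits SSRP1 and SUPT16 and 2 libraries of chromatin-associated RNA came from mESCs of the same line that received no knock-down. Early-stage NPCs (3 libraries) were made through embryoid bodies with 1 µM retinoic acid for 4 days and then 3 days without LIF. The question put to these genes was how markers of the neural lineage behave in mESCs when FACT is depleted.

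In neural development, SOX1 and SOX3 are SOXB1 transcription factors of the neural plate, and PAX6 is a paired-box factor that patterns progenitors of the forebrain, eye and spinal cord. Nestin, the product of *Nes*, is the intermediate filament of progenitors. Neurons then make βIII tubulin (*Tubb3*), the dendritic microtubule-associated protein MAP2, doublecortin (*Dcx*), which binds microtubules in migrating neurons, stathmin-2 (*Stmn2*), which destabilises microtubules in growing neurites, and the adhesion molecule NCAM1. Several of these RNAs are also present at low levels in cells outside the nervous system. In bulk RNA, a change in the number of cells that express a gene and a change in RNA per cell cannot be told apart.

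FACT peaks were assigned to 3 of the 9 genes. Tubulin gene *Tubb3* was the only member with peaks of both subunits, and *Nes* and *Pax6* carried SSRP1 peaks alone. Promoter sequences are shown for these genes and for *Map2*, which has no peak, because they are the members whose RNA or peaks the results below turn on. Each is the RefSeq window of 250 bases before to 50 after an annotated start in GRCm38.p6 (the assembly that mm10 names). The *Pax6* window shown is that of its first start, which no FACT peak reached. Neither *Pax6* window holds the internal start at 105676129 that a SSRP1 peak covers, so the sequence there is not described. Capitals mark CCGCCC on either strand, a GC box sequence.

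Tubb3, chr8:123411303-123411602, plus strand: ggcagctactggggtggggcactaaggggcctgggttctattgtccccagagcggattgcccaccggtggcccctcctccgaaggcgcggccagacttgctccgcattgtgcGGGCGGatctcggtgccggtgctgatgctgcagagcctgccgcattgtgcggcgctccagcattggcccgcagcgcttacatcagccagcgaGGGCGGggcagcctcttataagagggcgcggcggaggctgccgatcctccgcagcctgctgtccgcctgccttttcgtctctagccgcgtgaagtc
Nes, chr3:87970843-87971142, plus strand: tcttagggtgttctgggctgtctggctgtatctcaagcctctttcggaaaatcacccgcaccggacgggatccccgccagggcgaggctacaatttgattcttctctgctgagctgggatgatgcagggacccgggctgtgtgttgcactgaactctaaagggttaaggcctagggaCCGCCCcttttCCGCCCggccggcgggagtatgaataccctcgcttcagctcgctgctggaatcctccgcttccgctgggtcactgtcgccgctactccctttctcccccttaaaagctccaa
Pax6, chr2:105668646-105668945, plus strand: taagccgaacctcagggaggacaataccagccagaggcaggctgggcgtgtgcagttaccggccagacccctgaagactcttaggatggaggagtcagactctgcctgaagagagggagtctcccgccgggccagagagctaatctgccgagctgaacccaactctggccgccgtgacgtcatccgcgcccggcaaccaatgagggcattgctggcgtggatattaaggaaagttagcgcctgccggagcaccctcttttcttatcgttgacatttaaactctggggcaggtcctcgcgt
Map2, chr1:66175079-66175378, plus strand: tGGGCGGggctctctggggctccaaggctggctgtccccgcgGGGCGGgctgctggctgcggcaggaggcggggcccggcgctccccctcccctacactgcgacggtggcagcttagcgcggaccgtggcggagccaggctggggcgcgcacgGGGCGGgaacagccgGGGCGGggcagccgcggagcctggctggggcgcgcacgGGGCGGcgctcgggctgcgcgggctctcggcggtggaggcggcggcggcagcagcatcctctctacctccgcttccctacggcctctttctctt

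The *Map2* window held 5 CCGCCC matches, the *Tubb3* and *Nes* windows held 2 each, and the *Pax6* window had none. This motif is present in 35.7% of the 32851 promoter windows of the table. In the *Tubb3* window the matches began 138 and 46 bases before the start, and in the *Nes* window 73 and 62 bases before it. GC content was 67.3% in the *Tubb3* window, 58.7% in both the *Nes* and *Pax6* windows and 77.7% in the *Map2* window, against a median of 52.7% over all windows. CpG dinucleotides numbered 26 in *Tubb3*, 18 in *Nes*, 18 in *Pax6* and 37 in *Map2*, with a median of 7 over all windows. The *Sox1* window was like that of *Map2*, with 70.7% GC, 37 CpGs and 3 CCGCCC matches.

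Promoter entries were found for 6 of the 9 genes, 8 windows in all, and there was none for *Sox3*, *Stmn2* and *Ncam1*. *Dcx* differed from the others, with 2 overlapping windows of 44.7% and 43.0% GC, 3 CpGs each and a TATAAA match, a sequence held by 13.6% of all windows. A search for TTCAGCACC, the left side of the RE1 element to which the neuronal gene repressor REST binds, and for the right side of that element found neither in any of the 8 windows. They are present in 0.371% and 0.137% of all windows. The E-box letters CANNTG, held by 72.3% of all windows, occurred in 1 of the 8, the second *Pax6* window. ACAAT, the core read by SOX factors and held by 31.0%, occurred 3 times in *Tubb3* and once in *Nes* and in the first *Pax6* window. All motifs were read on both strands, and CANNTG is its own reverse complement.

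At *Tubb3*, which lies on chromosome 8 from 123411553 to 123422015 on the plus strand, a SSRP1 peak ran from 123411499 to 123411988 (490 bp). It covered the TSS and coding sequence of the first exon. A SUPT16 peak ran from 123410841 to 123411750 (910 bp) and covered the same TSS. The peaks shared 252 bp, which is 51.4% of the SSRP1 peak and 27.7% of the SUPT16 peak. The centre of the SUPT16 peak lay 258 bp upstream of the TSS and that of the SSRP1 peak 190 bp downstream. A further SUPT16 peak of 210 bp, from 123420921 to 123421130, lay in coding exon sequence 9472 bp from the TSS.

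At *Nes*, on chromosome 3 from 87971093 to 87980451 on the plus strand, the SSRP1 peak ran from 87970779 to 87971562 (784 bp), with its centre 78 bp downstream of the TSS. The nearest SUPT16 peak was 40313 bp from the TSS. *Pax6*, on chromosome 2 from 105668896 to 105698410 on the plus strand, has 4 annotated starts. Its first SSRP1 peak, from 105675949 to 105676242 (294 bp), covered the internal start at 105676129, and the second, from 105677223 to 105677908 (686 bp), lay in an intron. Neither reached the first start, 7200 and 8670 bp upstream of their centres.

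**Figure D1:**
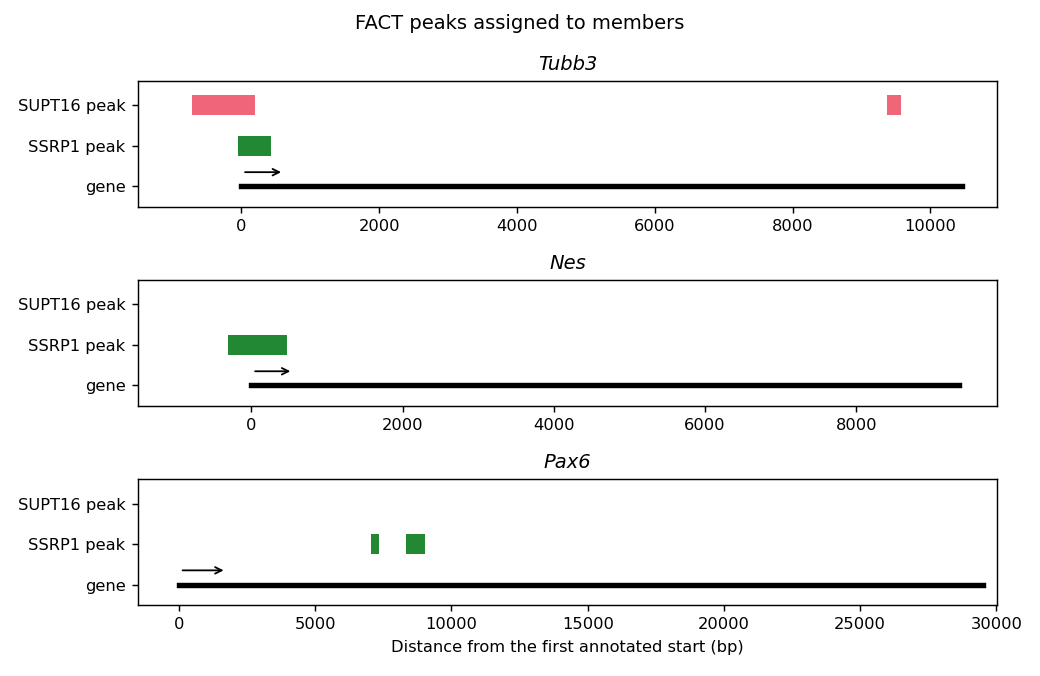
FACT peaks assigned to *Tubb3*, *Nes* and *Pax6*, drawn by distance in bp from the first annotated start; black bars are the genes, arrows the direction of transcription, green bars SSRP1 peaks and red bars SUPT16 peaks. Peaks of both subunits meet at the *Tubb3* start, whereas both *Pax6* peaks lie inside the gene.

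Counted over the list, 3 of 9 members had a SSRP1 peak within 1000 bp of a TSS and 1 of 9 had a SUPT16 peak there. Among 25186 annotated genes the shares were 17.3% and 10.2%, and among 14949 genes with RNA-seq values 26.8% and 16%. By the authors' nearest-gene assignment the counts were the same, 3 and 1, against 25.7% and 12.3% of all genes and 37.0% and 19.2% of those with RNA-seq values. All members with such peaks are among the 7 with RNA-seq values. Beside the shares of genes with RNA-seq values, the counts are therefore 3 of 7 and 1 of 7. These counts were not tested. No peak of either subunit was assigned to *Sox1*, *Sox3*, *Map2*, *Dcx*, *Stmn2* or *Ncam1*. For *Stmn2*, which starts at 8509527 on chromosome 3, the nearest SSRP1 peak was 57615 bp from the TSS, and for *Ncam1*, whose first start is at 49799393 on chromosome 9 (minus strand), it was 86723 bp from a start. The distances of the other 4 ran from 182465 bp for *Dcx* to 1427030 bp for *Sox3*. Peaks were called on the replicates of a subunit together, and the lists hold no heights, so the spread between ChIP replicates and the depth are unknown.

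RNA-seq values per library come as a value scaled to library size, the scale used unless another is named, and as a value scaled to the spike-ins. Reads recovered from the size of 1 read numbered 4602278 to 6680919 in the control libraries and 9433193 to 19856032 in the KD libraries. The targeted gene checked the labels, since *Ssrp1* had values of 222.6 to 260.7 in control and 24.1 to 28.9 in KD, a log2 fold change of -3.15 ± 0.07 (SE). *Supt16*, the gene of the other subunit, had 295.8 to 345.9 in control and 480.7 to 529.4 in KD, a log2 fold change of 0.66 ± 0.06 that is below the fold threshold used here, and of 1.69 on spike-in values. The library-size values of the 15384 genes sum to 825584 to 909417 in control and 1137293 to 1182584 in KD, and the spike-in values to 503414 to 782336 and 1073296 to 2155996. The library-size values are therefore not scaled to equal sums. TMM scaling of the recovered reads gave nearly the same fold changes, with a median over all genes of -0.036 against -0.035. Choice of scaling moves every fold change between the groups. Over all genes the median log2 fold change was -0.03 on library-size values and 0.95 on spike-in values. Pluripotency markers were all measured (11 of 11), with a summed value of 1210 to 1263 in control and 2493 to 2530 in KD.

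In control mESCs the neuronal RNAs *Stmn2* and *Tubb3* had the highest levels of the 7 per length. Mean library-size value per kb of exon was 37.0 ± 1.31 (SD, n = 4 libraries) for *Stmn2*, 19.5 ± 3.06 for *Tubb3* and 6.99 ± 0.502 for *Nes*. It was 2.93 ± 0.583 for *Ncam1*, 2.14 ± 0.695 for *Pax6* and 1.68 ± 0.229 for *Map2*, and 1.04 ± 0.316 for *Sox1*. The ranges over the 4 libraries overlapped for *Ncam1* and *Pax6* and for *Pax6* and *Map2*, and were apart for the other neighbours in this order. Of all genes of the table, 88.2% had a lower control level per kb than *Stmn2*, 75.6% than *Tubb3*, 45.3% than *Nes* and 0.481% than *Sox1*. All genes of the table are above a minimum set by the authors, so these shares are among expressed genes.

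After *Ssrp1* KD, *Tubb3* and *Stmn2* rose and *Pax6* and *Map2* fell. A call needed a log2 fold change beyond 1 in either direction with an adjusted p under 0.01. By this rule 2 members were higher, 2 lower and 3 not called, beside 8.07% of all genes called higher and 20.6% called lower. On the library-size scale the control and KD libraries did not overlap for any of the 7, with KD above in 2 and below in 5. Such separation was common, with 35.8% of all genes having every KD library above every control library and 37.5% below. On the spike-in scale only *Tubb3* and *Stmn2* were called, both higher, and only their groups did not overlap. There 48.1% of all genes were called higher and 7.03% lower, and 48.8% did not overlap with KD above and 9.17% with KD below.

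**Figure D2:**
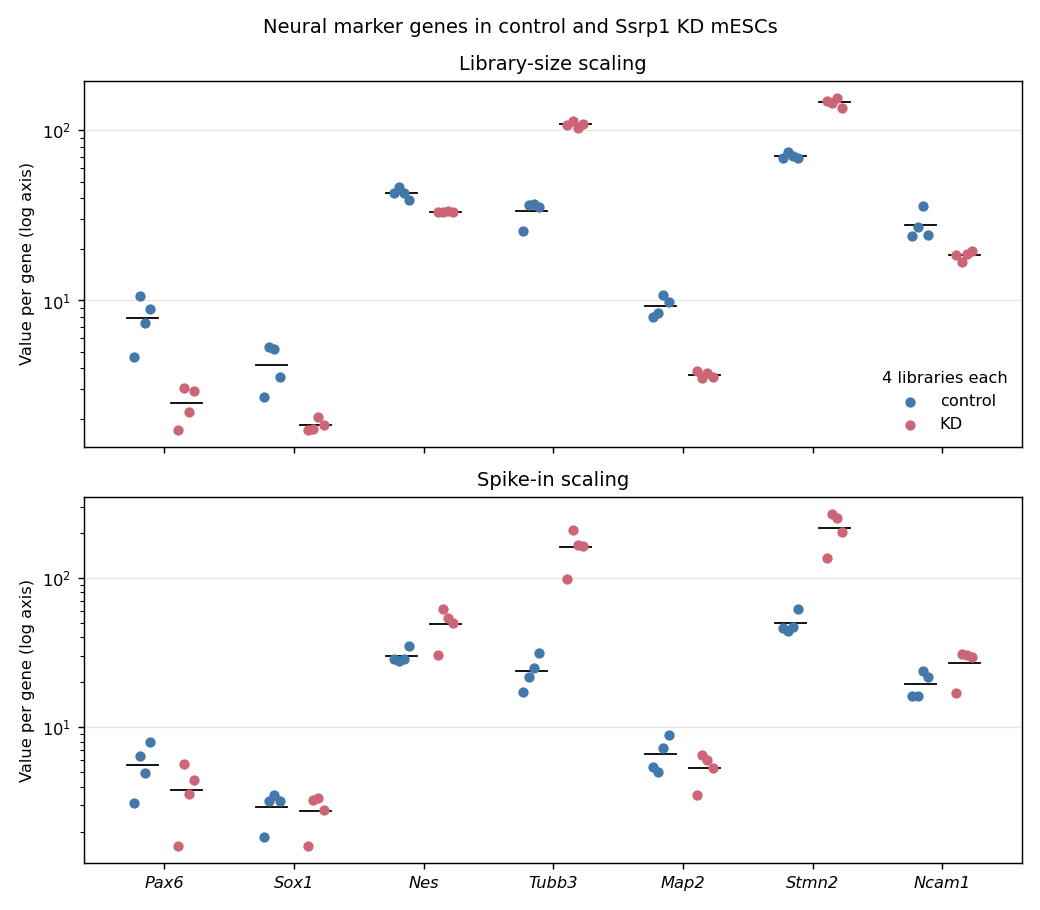
Values of the 7 measured members in each of 4 control (blue) and 4 KD (red) libraries, on log axes, with library-size scaling above and spike-in scaling below; points are libraries and black lines are means. *Tubb3* and *Stmn2* are separate and higher in KD in both panels, while the other 5 genes are lower in KD above and overlap below.

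In replicates 1 to 4 of the control, *Tubb3* was at 25.7, 36.3, 37.0 and 35.3, and in those of KD at 106.8, 113.9, 103.0 and 109.5 (the same order of replicates is used for the genes below). Every KD library was above every control library, and control replicate 1 was below the other 3. The log2 fold change was 1.69 ± 0.09 (SE), with an adjusted p of 7.4e-16 (limma). On the spike-in scale its values were 17.3 to 31.6 in control and 98.3 to 210.9 in KD, a log2 fold change of 2.70 ± 0.29 (adjusted p = 4.15e-19). It is 1 of 6 measured beta tubulin genes. Of these, 4 rose (*Tubb2b* by 2.48 ± 0.07, *Tubb2a* by 2.09 ± 0.06, *Tubb3* and *Tubb5* by 1.14 on the log2 scale), and *Tubb4b* at 0.93 and *Tubb6* at -0.31 were not called. On the spike-in scale 5 of the 6 were called higher, and *Tubb6* was at 0.71 without a call. Over all genes, 8.07% were called higher on library-size values and 48.1% on the spike-in scale. Beta tubulins are near copies of each other, and reads that the authors' counting could not place on 1 of them are uncertain.

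*Stmn2* had values of 69.0, 74.2, 70.1 and 68.8 in control and of 147.6, 145.4, 155.4 and 135.0 in KD. Groups did not overlap, and the spread within each was small beside the gap between them. The log2 fold change of 1.04 ± 0.06 (adjusted p = 9.43e-15, limma) was just past the threshold of 1, and on the spike-in scale it was 2.06 ± 0.29 (adjusted p = 9.07e-12), with 44.4 to 61.6 in control and 135.9 to 269.3 in KD. It was below the fold threshold with quantile normalisation (0.68) and with library sums made equal (0.61). Of the 3 measured stathmin genes, *Stmn1* rose as well, by 1.64 ± 0.06, and *Stmn3* had 0.13 (adjusted p = 0.681).

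*Map2*, by contrast, had values of 8.03, 8.43, 10.8 and 9.85 in control and of 3.83, 3.52, 3.76 and 3.54 in KD. All KD libraries were below all control libraries. These values rest on 49 to 72 reads in control and 31 to 61 in KD. The log2 fold change was -1.22 ± 0.17 (adjusted p = 1.95e-07, limma), and on the spike-in scale -0.28 ± 0.30 (adjusted p = 0.399), where the groups overlapped. With quantile normalisation it was -0.31 (adjusted p = 0.102). Among the 9 structural microtubule-associated protein genes, the axonal *Mapt* (tau) rose by 1.54 ± 0.09 and *Map7* by 1.35 ± 0.09, *Map2* and *Map1a* (-1.10 ± 0.13) fell, and 5 were not called. On spike-in values 5 of the 9 were called higher and none lower, and *Map1a* was at -0.10. Of all genes, 8.07% were called higher and 20.6% lower on library-size values, and 48.1% and 7.03% on spike-in values.

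*Pax6* had values of 4.63, 10.7, 7.35 and 8.89 in control and of 1.73, 3.05, 2.2 and 2.96 in KD. KD libraries were lower without overlap, but the control libraries spread over a wide range. The reads behind them were 34 to 65 in control and 14 to 52 in KD. The log2 fold change was -1.46 ± 0.23 (adjusted p = 1.62e-06, limma), and on the spike-in scale -0.54 ± 0.31 (adjusted p = 0.105). With quantile normalisation it was -0.42 (adjusted p = 0.117). No other PAX gene was among the genes with values. Part of *Pax6* lies opposite the antisense RNA gene *Pax6os1* (1435 bp) and *Elp4* (1091 bp), and the sources used here do not say how the counting used strand.

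*Sox1* had values of 2.72, 5.34, 5.2 and 3.56 in control and of 1.73, 1.76, 2.07 and 1.86 in KD. It was the lowest member, with 20 to 31 reads in control and 14 to 32 in KD. The log2 fold change was -0.96 ± 0.24 (adjusted p = 0.000628, limma), just under the fold threshold. Leaving out control replicate 1 (-1.13), control replicate 4 (-1.02) or KD replicate 3 (-1.002) took it past the threshold, and so did edgeR (-1.15) and DESeq2 (-1.13) on recovered reads, while on the spike-in scale it was -0.09 ± 0.32 (adjusted p = 0.814). The whole of *Sox1* lies inside the noncoding gene *Sox1ot* on the same strand, so reads there may have been split or dropped. *Sox2*, its SOXB1 relative that mESCs need for pluripotency, rose by 1.28 ± 0.06.

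*Nes* had values of 42.6, 46.6, 42.9 and 39.1 in control and of 33.2, 33.3, 33.5 and 32.9 in KD. The KD libraries lay close together below all controls. The log2 fold change of -0.36 ± 0.08 (adjusted p = 0.00012, limma) was not called for its size. *Ncam1* likewise was below the fold threshold, with values of 24.0, 26.8, 35.7 and 24.2 in control and of 18.5, 16.8, 18.8 and 19.6 in KD and a log2 fold change of -0.56 ± 0.11 (adjusted p = 5.39e-05). On the spike-in scale the sign of both turned, to 0.65 ± 0.29 for *Nes* (adjusted p = 0.0315) and 0.45 ± 0.29 for *Ncam1* (adjusted p = 0.149), with overlapping groups and no call.

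An exact two-sided permutation test over the 8 libraries gave 0.0286 for each of the 7 members on library-size values, the smallest p that 4 against 4 can give. Every gene whose groups do not overlap gets this p, so it restates the separation above. That held for 35.8% of all genes with KD above and 37.5% with KD below. On spike-in values the test gave 0.0286 for *Tubb3* and *Stmn2*, 0.0571 for *Nes*, and 0.114 to 0.6 for the other 4. On that scale KD replicate 1, the shallowest KD library, had the lowest KD value of each of the 7 members. Without it, *Tubb3* and *Stmn2* were still the members called, at 2.92 and 2.27, and *Sox1* turned to 0.11. Of all 15384 genes, 8607 were then called higher and 834 lower, so a higher call was common.

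Both scalings multiply the same reads of a library by 1 factor. Apart from the 0.5 added before the log, the difference of a member from the median of all genes is therefore the same by construction. It is given here as a description and is no check of the scaling. *Tubb3* was 1.72 above the median log2 fold change on library-size values and 1.75 above it on spike-in values, and *Stmn2* 1.08 and 1.11. The difference from the median was -1.42 and -1.49 for *Pax6*, -1.19 and -1.23 for *Map2* and -0.92 and -1.04 for *Sox1*. It was -0.52 and -0.51 for *Ncam1* and -0.32 and -0.30 for *Nes*.

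The calls were also made under other settings, whose shares of all genes called are the background for the member counts. Quantile normalisation called 9.87% higher and 10.8% lower, the length correction 10.7% and 17%, and equal sums 2.23% and 30.5%. The adjusted p alone called 35.4% and 37.3%, edgeR 8.24% and 22.4%, DESeq2 9.09% and 21.9%, and limma's treat, which tests for a fold beyond the threshold, 3.36% and 10.3%. Under treat, *Tubb3* was the only member called.

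**Figure D3:**
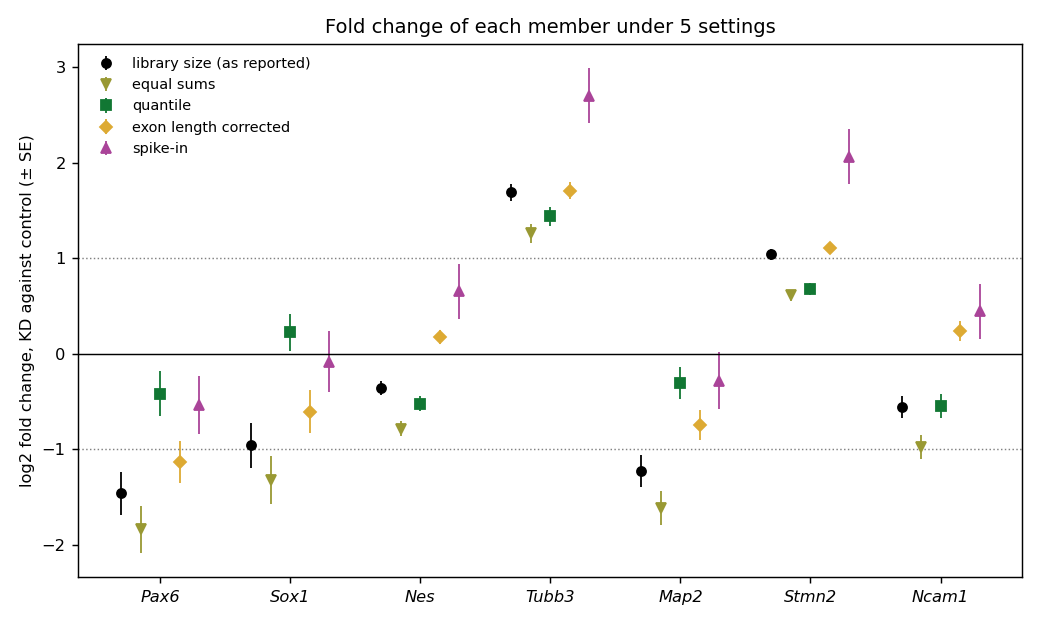
log2 fold change of each measured member, KD against control, with its SE, under 5 settings (library size, equal sums, quantile, length corrected and spike-in); dotted lines mark the fold threshold of 1 in each direction. *Tubb3* is above 1 in all 5, *Stmn2* is above 0 in all 5, and *Nes*, *Ncam1* and *Sox1* lie on both sides of 0.

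Fold changes in these libraries also moved with exon length. Genes were put into 10 classes of like size by length. In the shortest class (42 to 960 bp of exon) the median log2 fold change was 0.54, and in the longest (6048 to 104320 bp) it was -0.46. The members that rose are short, *Tubb3* with 1723 bp and *Stmn2* with 1904 bp, and the other 5 are between 3681 bp (*Pax6*) and 9437 bp (*Ncam1*). In its own length class, *Tubb3* was above 98.5% of genes and *Stmn2* above 94.0%. *Pax6* was above 16.1%, *Map2* above 22.5% and *Sox1* above 24.4% of theirs, while *Nes* (55.3%) and *Ncam1* (46.4%) lay near the middle. With the KD values corrected for length by a loess curve, *Tubb3* was at 1.71, *Stmn2* at 1.11 and *Pax6* at -1.13, all 3 still called. *Map2* at -0.74 was no longer called, and *Nes* (0.18) and *Ncam1* (0.23) turned sign without a call. Genes at a low level had lower fold changes too. The median was -0.89 in the class of genes by control level, 1 of 10, that holds *Pax6*, -0.54 in that of *Sox1* and -0.68 in that of *Map2*, against 0.14 in that of *Tubb3* and *Nes* and 0.29 in that of *Stmn2*. The part of length and level in each result was not tested further.

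**Figure D4:**
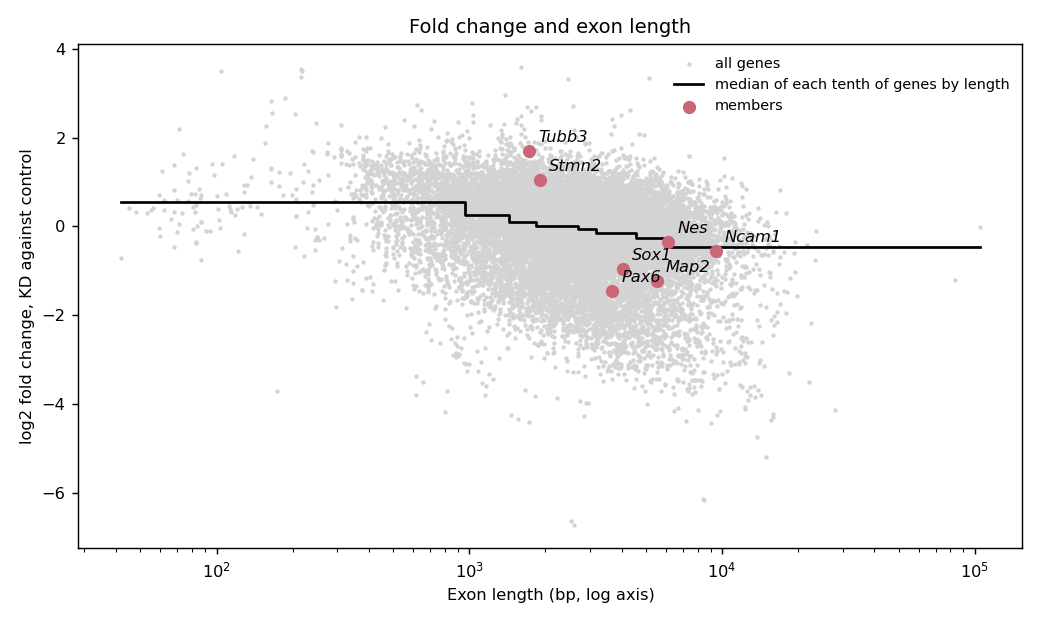
log2 fold change (KD against control, library-size values) against exon length on a log axis; grey points are the 15384 genes, the black line is the median of each of 10 length classes and red points are the 7 members. *Tubb3* and *Stmn2* stand above the line, *Pax6*, *Sox1* and *Map2* below it, and *Nes* and *Ncam1* near it.

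Wider lists of neural genes, which include the members, were counted in the same fit. Of 174 genes on 5 lists, 116 had values, 10 rose, 53 fell and 53 were not called, with a median log2 fold change of -0.94. These are shares of 8.62% higher and 45.7% lower, beside 8.07% and 20.6% of all genes. The latter are also the shares to set beside the library-size counts of each list below. On the spike-in scale 28 of the 116 were called higher and 27 lower, beside 48.1% and 7.03% of all genes, which are also the shares to set beside the spike-in counts of each list below. All these lists were chosen with earlier results known, and exon length and level move with them as above. The authors kept only genes above a minimum level. Some that fell were very low in KD, such as *Zeb2*, with means of 9.07 in control and 0.89 in KD. Such genes can enter through the control libraries alone, which favours falls in the lists here and below. How far this moved the counts was not tested.

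Among 24 measured transcription factors and regulators of progenitors, 2 rose and 8 fell. Those that rose were *Sox2* and *Otx2* (1.16 ± 0.12), a factor of the early forebrain and of the pluripotent epiblast. The largest falls were *Zeb2* (-2.80 ± 0.23) and *Sall3* (-1.93 ± 0.20). On spike-in values 9 were higher and 3 lower, with quantile normalisation 3 and 5, and with the length correction 5 and 6. Of 12 structural and surface genes of progenitors none rose and 6 fell, led by the receptor phosphatase *Ptprz1* (-2.64 ± 0.16) and N-cadherin, *Cdh2* (-2.45 ± 0.23). Here *Nes*, a member of that list, was among the 6 that were not called. On spike-in values 2 of the list were higher and 5 lower. Both quantile normalisation and the length correction gave 0 higher and 5 lower.

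Neuronal cytoskeleton genes were split on library-size values, with 7 higher and 9 lower of 31. The split moved with the setting, to 8 higher and 3 lower with quantile normalisation and 8 and 5 with the length correction. Tubulins *Tubb2b* and *Tubb2a* had the highest fold changes of that list, and the axonal transport motor *Kif1a* (-2.82 ± 0.16) and *Crmp1* (-1.90 ± 0.19) the lowest. On spike-in values 12 were higher and 1, *Kif1a*, lower. Adhesion and axon guidance genes had 0 higher and 15 lower of 21, led by the semaphorin receptor genes *Plxna4* (-3.70 ± 0.18) and *Nrp1* (-3.54 ± 0.16). On the spike-in scale that list had 1 higher and 10 lower, with quantile normalisation 0 and 12, and with the length correction 1 and 11. The median of the list was -1.79 on library-size values, beside -0.56 for *Ncam1*. Synapse and mature neuron genes had 1 higher, *Uchl1* (1.13 ± 0.07), and 15 lower of 28. The falls were led by *Pclo* (-3.50 ± 0.17) and the glutamate receptor gene *Grin2b* (-3.28 ± 0.19). On spike-in values 4 of that list were higher and 8 lower, with quantile normalisation 0 and 7, and with the length correction 1 and 11. Of REST and its cofactors, which repress neuronal genes outside neurons, all 17 had values, and *Rcor2* (1.32 ± 0.07) and *Ehmt2* (1.16 ± 0.05) rose and *Ctdspl* (-1.40 ± 0.16) fell. On spike-in values 10 of the 17 were higher, beside 48.1% of all genes, and none lower.

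Relatives of *Dcx* that had values were *Dclk2*, which rose by 1.15 ± 0.10, and *Dclk3*, which fell (-1.47 ± 0.24), with *Dclk3* not called on spike-in values (-0.61). Intermediate filament genes related to *Nes* had 0 higher and 3 lower of 10, beside 8.07% and 20.6% of all genes. *Gfap* (-2.59 ± 0.31) and *Synm* (-2.07 ± 0.10) were the lowest. On spike-in values 4 were higher and 2 lower, beside 48.1% and 7.03% of all genes.

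Markers of other cell types were counted beside them, where 8.07% of all genes were called higher and 20.6% lower on library-size values. Of pluripotency markers 6 of 11 were called higher, the highest being *Dppa3* (1.95 ± 0.13) and *Fgf4* (1.53 ± 0.06), and none lower. Markers of primitive streak, mesoderm and endoderm were lower in 8 of 11 measured (lowest *Kdr*, -2.67 ± 0.22, and *Sox7*, -2.20 ± 0.25), and their summed value was 77.0 to 117.3 in control and 39.7 to 41.9 in KD. Neural crest markers were lower in 5 of 7 (*Ets1* at -4.00 ± 0.12 and *Tfap2a* at -2.37 ± 0.23), summing to 108.7 to 129.4 and 33.3 to 37.0. Most of that sum was *Ets1*, with a mean of 72.9 in control and 4.05 in KD, and the crest factor *Foxd3*, also a gene of pluripotent cells, had 11.6 and 21.6 (0.88, not called; named after its values were seen). Fibroblast markers were lower in 5 of 7 (*Fbn1* at -2.77 ± 0.14 and *Col3a1* at -2.63 ± 0.22), summing to 101.8 to 124.5 and 27.9 to 31.4. Trophectoderm and epithelium markers were lower in 5 of 10 (*Krt15* at -4.39 ± 0.16 and *Krt14* at -3.68 ± 0.23), summing to 1171 to 1576 and 853 to 913. Glial markers were lower in 4 of 9 (*Cspg4* at -3.45 ± 0.24 and *Gfap*) and higher in 1 (*Cnp* at 1.37 ± 0.10), summing to 125.2 to 157.7 and 107.5 to 112.8. On spike-in values 11 pluripotency markers were higher, and the other lists had 0 higher and 2 lower for streak, mesoderm and endoderm, 1 and 3 for neural crest, 0 and 4 for fibroblasts, 0 and 2 for trophectoderm and epithelium and 2 and 3 for glia, beside 48.1% higher and 7.03% lower of all genes. Defining markers without RNA-seq values included *T*, *Mixl1*, *Foxa2* and *Afp* of the streak and endoderm, *Sox9* and *Snai2* of the crest, *Aqp4* and *S100b* of glia, *Elf5* and *Krt5* of trophectoderm and epithelium, and *Lum* and *Dcn* of fibroblasts. On library-size values the sums of these non-pluripotent lists were lower in KD, as were *Pax6* and *Map2*, and their part in those results was not tested. The neural lists did not move together. Sums rose for progenitor regulators (463.6 to 499.1 in control, 675.8 to 723.3 in KD) and neuronal cytoskeleton (792.4 to 865.0, 1398.7 to 1442.0). They fell for structural and surface genes (386.6 to 403.8, 328.1 to 354.8), adhesion and guidance (501.3 to 642.2, 333.2 to 353.2) and synapse genes (335.9 to 479.1, 279.4 to 282.9).

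Across the 8 libraries, the gene with the log2 values most like *Tubb3* was *Wbscr22* (Pearson's r = 0.998), and for *Stmn2* it was *Rrm1* (r = 0.999). The closest to *Pax6* was *Zfp78* (0.99), to *Sox1* *Scrt2* (0.996), to *Nes* *Susd4* (0.999), to *Map2* *Sytl4* (0.999) and to *Ncam1* *Tspan32* (0.99). With 2 groups that differ, such likeness is common, as r was above 0.95 with 2237 genes for *Tubb3*, 3119 for *Stmn2*, 2396 for *Map2* and 126 for *Ncam1*. The 8 points share their groups, depth and scaling, and the values describe only these libraries.

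In RNA bound to chromatin of untreated mESCs, reads were counted on every member, but few. Library 1 and library 2 held 3441643 and 3393923 reads, of which 63.8% and 60.7% fell on snoRNA genes and 5.56% and 9.35% on protein-coding genes. *Stmn2* had 37 and 30 reads and *Ncam1* 16 and 43, the highest of the 9. *Nes* had 12 and 9, *Sox1* 6 and 7, *Map2* 9 and 3, *Tubb3* 1 and 9 and *Pax6* 3 and 3. *Sox3* and *Dcx*, which have no RNA-seq values, had 2 reads each in library 1 and 0 in library 2, where the 95% exact Poisson interval reaches 3.69 reads.

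In RPKM, which scales reads to exon length and to the library total, *Stmn2* was at 5.65 and 4.64, above 98.0% and 93.6% of protein-coding genes. *Ncam1* stood at 0.493 and 1.34, and *Tubb3* at 0.169 and 1.54. The 95% exact Poisson intervals, which cover counting error only, were 0.0253 to 5.57 and 4.12 to 17.1 reads for *Tubb3* and 9.15 to 26.0 and 31.1 to 57.9 reads for *Ncam1*. In both libraries the RPKM interval of *Dcx* (up to 0.229 and 0.119) lay below those of *Nes* (from 0.294 and 0.198) and *Ncam1* (from 0.282 and 0.972). These levels depend on the few genes that take most reads. With the 1% of genes with the highest counts left out of the totals, which then were 156919 and 269760 reads, *Stmn2* was at 123.8 and 58.4, *Ncam1* at 10.8 and 16.9 and *Tubb3* at 3.70 and 19.4. Scaled to the whole gene span in place of exons, the mean of both libraries was 0.188 for *Stmn2*, 0.0292 for *Ncam1* and 0.141 for *Tubb3*. Differences between the libraries are therefore not read from these values.

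**Figure D5:**
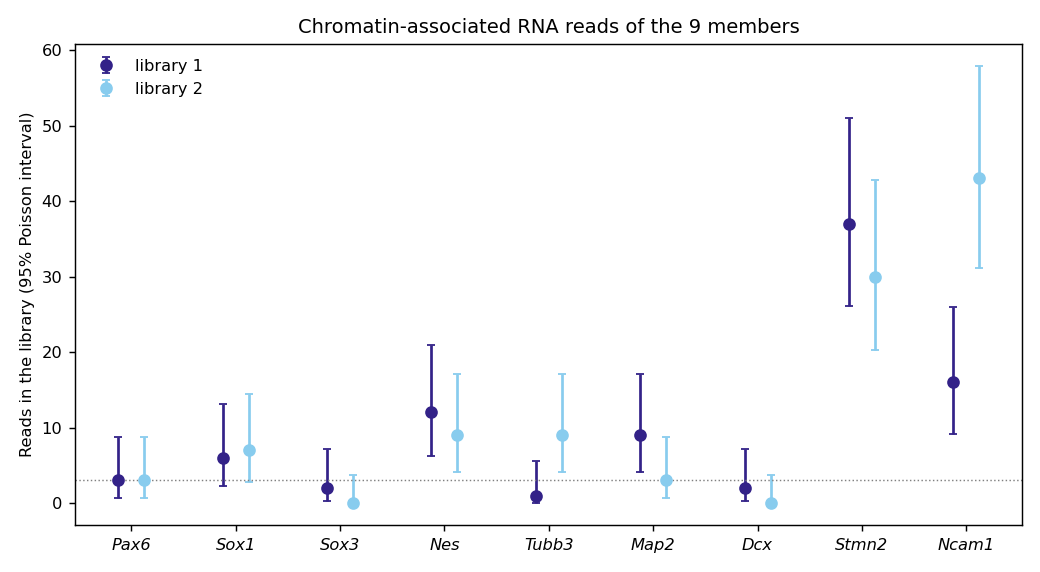
Reads of the 9 members in each of 2 chromatin RNA libraries of mESCs, with 95% exact Poisson intervals; the dotted line is a guide at 3 reads. *Stmn2* and *Ncam1* have 16 to 43 reads, and the other 7 have at most 12.

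In the table of NPCs and wild-type mESCs, the authors' mean log2 level over all libraries was 7.14 for *Nes*, above 91.1% of the 14401 genes. That mean was 5.84 for *Tubb3* (above 72.8%), 5.76 for *Stmn2* (71.4%) and 5.45 for *Ncam1* (65.9%). For *Map2* it was 2.95 (29.4%), for *Pax6* 1.06 (11.8%) and for *Sox1* 0.90 (10.5%). In the table of KD and control mESCs, *Nes* was at 5.62 (above 67.6% of 14340 genes), *Tubb3* at 5.88 (72.0%) and *Stmn2* at 6.53 (82.3%). There *Ncam1* was at 4.25 (44.0%), *Map2* at 1.68 (14.1%), *Sox1* at 1.01 (7.61%) and *Pax6* at 0.80 (5.63%). These tables were normalised separately and each mean pools the groups, so the levels are set side by side as ranks only. The difference between NPCs and mESCs was not analysed here.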

How the data were processed

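RNA-seq values of the 4 control and 4 KD libraries with spike-ins were used. By the methods, STAR alignments to mm10 were summarised per gene by featureCounts, and the authors removed weakly expressed genes before TMM normalisation. They deposited a signal per gene and library, scaled to library size and to spike-ins. It proved to be whole multiples of 1 read (100% of values within 0.1), with the size of 1 read taken from the gaps between low values, which gave each library's recovered reads. The authors deposited log2 mean levels, in 2 tables whose fold changes, p-values and moderated statistics were not used, nor was the table of exon usage, which holds fold changes and p-values of exons. Chromatin RNA is a raw count per gene, deposited by the authors, and the sources used here do not name the tool that counted it. For ChIP-seq, the authors ran PePr on pooled replicates, and ChIP-Enrich gave each peak its nearest gene.

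log2(value + 0.5) of all 15384 genes was fitted with limma 3.58.1 (trend, R 4.3.3), with Benjamini-Hochberg adjustment. Fold changes are on this scale, which understates changes of low genes. Alternatives included fits of the recovered reads by edgeR 4.0.16 and by DESeq2 1.42.0. On simulated data of 15384 genes with 200 changed genes all 3 tools recovered 100% of them. The changes were large, with a median log2 fold change of 1.97 by limma for the raised genes. They were set only in genes above a minimum of expected reads. Recovery of changes near the threshold of 1 was therefore not tested. Peaks and promoters used the RefSeq annotation of GRCm38.p6. Members, gene lists and tests were chosen with earlier results of these data known. Named genes are the members, *Ssrp1* and *Supt16*, the 2 highest and 2 lowest called genes of each list whose groups do not overlap, paralogs of members, and the gene most like each member over 8 libraries. Labels call the 4 KD and 4 control libraries replicates, and nothing in them says more of the cultures, so p-values measure the spread between these samples. Replicates of a group all differed beyond sampling noise, with a chi-square of 1.88 to 6.62 for each degree of freedom. MNase-seq, ATAC-seq and NET-seq were not analysed here.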

Additional observations from a re-analysis of the deposited data

Results flagged for a closer look

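In groups of 4 libraries, a value was listed when its gap to the nearest library, as a share of the group's range, was above Dixon's 95% critical value. Of 28 groups tested (7 genes, 2 groups, 2 scalings), 4 were listed, where chance alone lists about 1 in 20 independent groups. These groups are not independent, since both scalings use the same reads and the genes share each library's factor. The 4 are therefore not set against that rate. On library-size values, *Tubb3* in control replicate 1 was low at 25.7, with the other 3 at 35.3 to 37.0. On spike-in values, *Nes* (35.0) and *Stmn2* (61.6) were high in control replicate 4, and *Ncam1* (17.1) was low in KD replicate 1. Control replicate 4 had the highest sum of spike-in values among the control libraries (782336), and KD replicate 1 the lowest among the KD libraries (1073296). Without control replicate 1 the log2 fold change of *Tubb3* was 1.57.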

How the results depend on the processing

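The counts of 2 members higher and 2 lower were computed under each alternative listed here and under other pseudocounts, filters, TMM and DESeq2 size factors, thinned reads, edgeR and DESeq2. *Tubb3* was called higher in all of them. TMM scaling nearly repeats the library-size values, so it is no separate check of them. Members called higher numbered 1 with quantile normalisation, limma's treat at a fold of 1 and, chosen after seeing the data, equal library sums. Members called lower numbered 0 with spike-in scaling, quantile normalisation, treat and a minimum mean value of 10 (which *Pax6*, *Sox1* and *Map2* do not reach), 1 with a pseudocount of 2 and with the exon length correction, and 5 with the adjusted p alone. With the pseudocount of 2, 1083 of all genes were called higher and 2389 lower. Leaving out 1 library at a time gave 2 higher and 2 to 3 lower. Over all genes these fits called 1210 to 1316 higher and 3044 to 3331 lower. On spike-in values without KD replicate 1, also added after seeing the data, 2 were higher and 0 lower. Beside them, 8607 of all 15384 genes were called higher and 834 lower. Signs turned for *Sox1* with quantile normalisation (0.23), for *Nes* with spike-in scaling (0.65) and the length correction (0.18), and for *Ncam1* under the same alternatives (0.45 and 0.23), and on spike-in values without KD replicate 1 *Sox1* was at 0.11, *Nes* at 0.86 and *Ncam1* at 0.65. The cause was not tested. For the wider lists, 10 higher and 53 lower became 28 and 27 with spike-in scaling, and 32 were lower with quantile normalisation. Over all genes, 1242 were called higher and 3163 lower, against 7394 and 1082 with spike-in scaling, 1518 and 1656 with quantile normalisation, 1142 and 961 with the minimum mean of 10, 1649 and 2617 with the length correction, 5447 and 5745 with the adjusted p alone, 343 and 4696 with equal sums, and 517 and 1580 with treat. Replicate numbers are shared by control and KD, but same-numbered libraries did not deviate together (correlations -0.057 to 0.018), and a replicate block gave 2 higher and 2 lower members and 10 and 53 genes of the lists. With peaks of at least 500 bp, 1 member had a SSRP1 peak near a TSS in place of 3. The share of all genes with such a peak was not counted. Depth limits *Pax6*, *Sox1* and *Map2*, which had 14 to 72 reads a library.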
